A study of Homo sapiens with 4 samples.

Results

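The SOX transcription factors were examined in SK-N-BE(2), a human neuroblastoma cell line with amplified MYCN, after knockdown of METTL14, a subunit of the complex that writes N6-methyladenosine (m6A) on RNA. The members were the 10 genes SOX2, SOX4, SOX5, SOX6, SOX8, SOX9, SOX10, SOX11, SOX12 and SOX13, taken by symbol from the 60671 gene IDs of the count table, and each had 1 row there. RNA sequencing compared cells with a hairpin against METTL14 (shMETTL14, 2 libraries) with cells carrying a scrambled hairpin (shNC, 2 libraries). The hairpins were delivered in a lentiviral pLKO vector and infected cells were selected with puromycin, so both groups carried a vector. The labels do not say which METTL14 hairpin the sequenced cells carried, nor whether replicates were separate cultures. P-values therefore measure the spread between these libraries, which may be technical.

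SOX proteins bind DNA through a high-mobility-group (HMG) box and bend it, and they usually act together with partner factors. The family is divided by the similarity of this box into subgroups. SOX2 (SOXB1) keeps neural progenitors undifferentiated, and SOX4, SOX11 and SOX12 (SOXC) act in neuronal and sympathoadrenal precursors. SOX5, SOX6 and SOX13 (SOXD) lack a transactivation domain of their own and modulate other factors, whereas SOX8, SOX9 and SOX10 (SOXE) act in the neural crest, the embryonic tissue from which neuroblastoma arises. SOX9 also drives cartilage differentiation, and SOX10 drives the Schwann cell lineage.

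The HMG box is shown here at the bases that code for its conserved start, because this is the stretch that makes the 10 genes a family. Sequences are from the longest coding transcript in GENCODE 29 (GRCh38), on the strand of the gene, and capitals mark the bases that differ from SOX2.
SOX2 (chr3:181712487-181712513, plus strand): cggcccatgaatgccttcatggtgtgg
SOX4 (chr6:21594715-21594741, plus strand): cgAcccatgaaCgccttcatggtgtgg
SOX11 (chr2:5692872-5692898, plus strand): cggccGatgaaCgcGttcatggtAtgg
SOX12 (chr20:326048-326074, plus strand): AggccGatgaaCgcAttcatggtgtgg
SOX9 (chr17:72121710-72121736, plus strand): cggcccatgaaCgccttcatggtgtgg
SOX10 (chr22:37983443-37983469, minus strand): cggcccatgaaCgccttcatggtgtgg
SOX5 (chr12:23543284-23543310, minus strand): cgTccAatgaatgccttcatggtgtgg

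Over these 27 bases SOX9 and SOX10 were identical, and SOX11 and SOX12 each differed from SOX2 at 4 bases. The stretch lies in the only exon of SOX2, SOX4, SOX11 and SOX12, in exon 1 of 3 of SOX9, in exon 2 of 4 of SOX10 and in exon 13 of 15 of SOX5. Across a window of 237 coding bases over the box, pairs of the same subgroup shared from 78.9% to 89.9% of bases (9 pairs), and pairs of different subgroups from 54.9% to 73.8% (36 pairs). The longest stretch that any 2 of the longest coding transcripts of members had in common was 45 bases, between SOX9 and SOX10. A read of 150 bases is longer than that stretch, so a read end lying wholly in any of these transcripts could not match the transcript of another member over its full length.

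Depth was even, with 18925786 to 19886214 reads counted in genes per library. METTL14 checked the labels: its counts were 753 and 754 in shNC cells and 303 and 321 in shMETTL14 cells, and 41.7% of the control level remained (log2 fold change -1.26, SE 0.0832, edgeR adjusted p 3.6e-11). Neuroblast markers were present in every library. Of the 10 markers of that list, 8 were called lower and 2, ISL1 and MYCN, were called higher, where 25.3% of all 16309 tested genes were called lower and 27.2% higher. Their summed level was 5837 to 5974 CPM in shNC and 5737 to 5776 CPM in shMETTL14 libraries. MYCN alone made up 2637 and 2596 CPM of it in shNC and 3153 and 3193 CPM in shMETTL14 libraries. Without MYCN, a sum added after the data were seen, the other 9 markers stood at 3337 and 3241 CPM against 2584 and 2583 CPM. The part of this shift in the results for SOX genes was not tested. Markers of Schwann cells summed to 4.86 to 5.82 CPM in shNC and 3.78 to 4.26 CPM in shMETTL14 libraries, and CDH19 had no count. In bulk RNA, fewer cells of a type and less RNA per cell cannot be told apart.

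Of the 10 SOX genes, 5 were expressed strongly enough to be tested: SOX4, SOX11, SOX12, SOX9 and SOX2. At an edgeR adjusted p under 0.05, 3 of the 5 were called, where 52.5% of all 16309 tested genes were called. With DESeq2, 2 of the 5 were called (SOX11 and SOX12), beside 36.9% of all tested genes. SOX11 and SOX12 rose and SOX9 fell in shMETTL14 cells, and SOX4 and SOX2 did not pass the test. The changes were modest, from a 1.33-fold increase to a decrease to 83.5% of control. The median log2 fold change of the 5 tested members was 0.18, beside -0.00095 over all tested genes. Groups did not overlap in 4 of the 5 members, and the same held for 75.5% of tested genes.

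**Figure D1:**
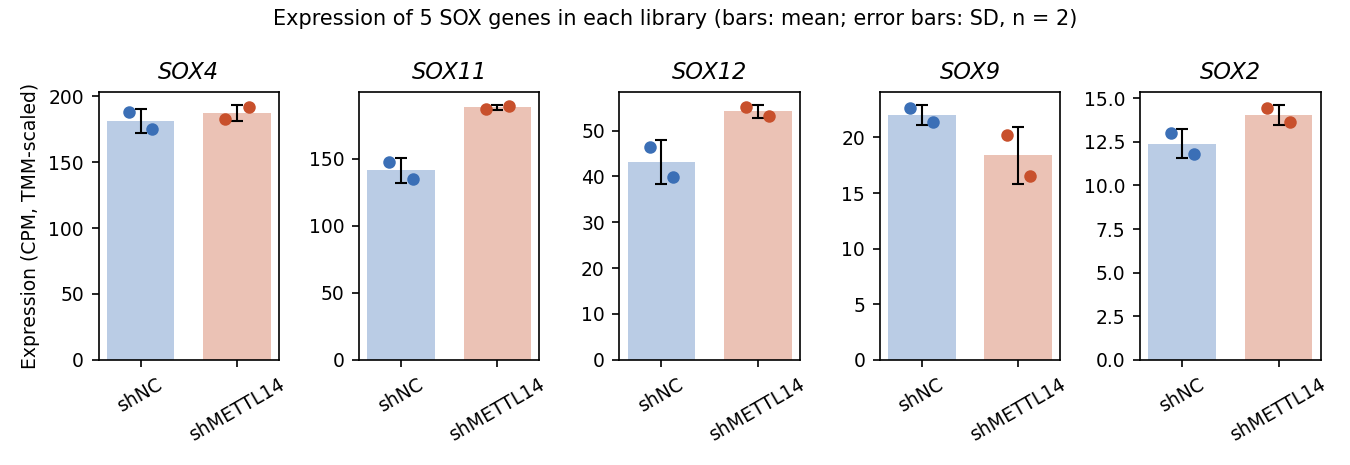
Expression of the 5 tested SOX genes in CPM (counts scaled to library size, with TMM factors), with points for libraries, bars for group means and error bars for the SD (n = 2); each panel has its own vertical axis starting at 0. The SOX11 points lay at 148 and 135 CPM in shNC and at 187 and 190 CPM in shMETTL14 libraries, whereas the SOX4 points of the groups overlapped.

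SOXC genes made up most of the family's reads. SOX4, SOX11 and SOX12 together took between 91.3% and 93.4% of all reads counted for the 10 members in a library, a share that is not corrected for transcript length. SOX11, a single-exon gene on chromosome 2 (5692667 to 5701385, plus strand), had 2947 and 2582 counts in shNC libraries and 3664 and 3654 counts in shMETTL14 libraries. Both shMETTL14 libraries lay above both shNC libraries. The means were 141 ± 9.20 CPM in shNC and 188 ± 1.93 CPM in shMETTL14 cells (SD, n = 2 each). This was a log2 fold change of 0.41 (SE 0.0460, edgeR adjusted p 1.2e-07), or 133% of control with a 95% interval of 1.25-fold to 1.42-fold. Of the tested genes, 15.9% stood above SOX11 in log2 fold change, and 36.8% had a larger change in either direction. In the annotation, SOX11 shares 74 exon bases with a non-coding RNA gene on the same strand at its 3′ end.

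SOX12, a close relative of SOX4 and SOX11 with an overlapping role, also rose. It lies on chromosome 20 (325595 to 330224, plus strand) and has 1 exon. Its counts were 927 and 762 in shNC and 1081 and 1023 in shMETTL14 libraries. On the CPM scale the libraries stood at 46.5 and 39.8 against 55.2 and 53.2, so the groups did not overlap, although the shNC libraries differed from each other by more than the shMETTL14 libraries did. On the log2 scale SOX12 was higher by 0.33 (SE 0.0699; edgeR, adjusted p 4.5e-04). A higher log2 fold change was found in 21.1% of tested genes, and a larger change in either direction in 46.5%.

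SOX4 was the most abundant member and was not called. It lies on chromosome 6 (21592768 to 21598619, plus strand) and shares 168 exon bases with an antisense gene on the opposite strand, whose reads may not be told apart from its own. Its counts were 3745 and 3352 in shNC and 3581 and 3690 in shMETTL14 libraries, which is 188 and 175 CPM against 183 and 192 CPM. The groups overlapped, with a shMETTL14 library between the shNC libraries. The difference on the log2 scale was 0.05 (SE 0.0446; edgeR, adjusted p 0.414), and the 95% interval of the change ran from 0.968-fold to 1.10-fold. Under upper quartile scaling its value took the other sign, -0.02, and was not called there either.

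Ratios between SOXC genes within a library do not depend on how libraries are scaled. The ratio of SOX11 to SOX4 counts was 0.787 and 0.770 in shNC libraries and 1.02 and 0.990 in shMETTL14 libraries. SOX4 thus had more counts than SOX11 in both shNC libraries, and the counts were nearly equal in both shMETTL14 libraries. These counts are not corrected for transcript length, and per length SOX4 stayed above SOX11 in shMETTL14 cells (32.0 against 21.6 RPKM). The ratio of SOX12 to SOX4 was 0.248 and 0.227 in shNC and 0.302 and 0.277 in shMETTL14 libraries, again with no overlap. The ratio of SOX11 to SOX12 was 3.18 and 3.39 against 3.39 and 3.57, and for this pair the groups lay next to each other. For a ratio in 2 against 2 libraries, an exact permutation test cannot give a two-sided p below 0.333, so the ratios carry no test.

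**Figure D2:**
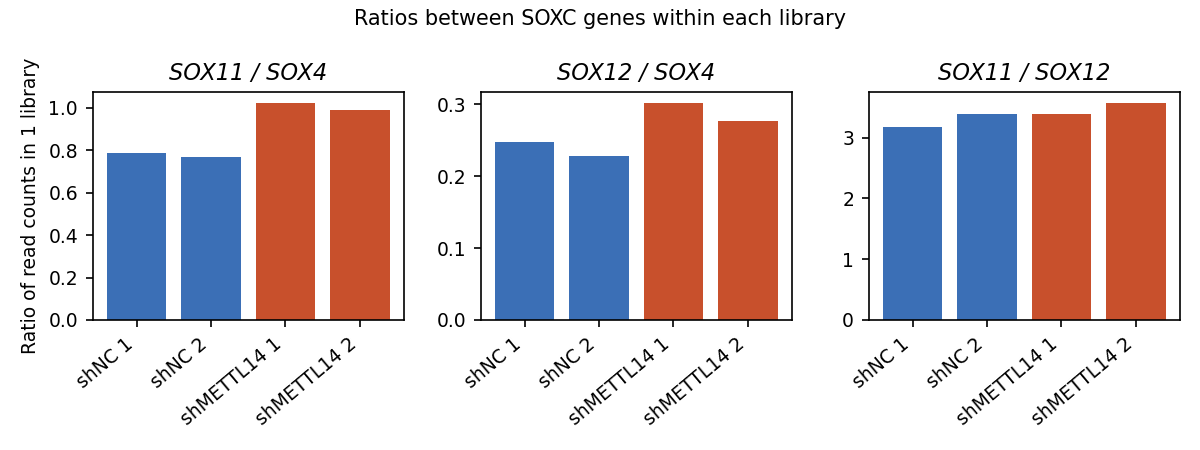
Ratio of read counts between SOXC genes within each of the 4 libraries, with 1 bar per library and axes starting at 0. SOX11 over SOX4 lay at 0.770 and 0.787 in shNC and at 0.990 and 1.02 in shMETTL14 libraries, and SOX11 over SOX12 lay between 3.18 and 3.57 in all 4.

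SOX9 was the only SOXE gene with any counts, and the only tested member that fell. The gene lies on chromosome 17 (72121020 to 72126420, plus strand) and has 3 exons. Its counts were 452 and 410 in shNC and 396 and 319 in shMETTL14 libraries, or 22.7 and 21.4 CPM against 20.2 and 16.6 CPM. Both shMETTL14 libraries were below both shNC libraries, but shMETTL14 library 1 lay nearer to the shNC libraries than to shMETTL14 library 2. The difference on the log2 scale was -0.26 (SE 0.0986; edgeR, adjusted p 0.0311), which is 83.5% of control with a 95% interval of 0.724-fold to 0.962-fold. The call was not stable. With DESeq2 the value was -0.26 with an adjusted p of 0.149, and edgeR gave -0.12 (adjusted p 0.436) without shMETTL14 library 2, -0.22 (adjusted p 0.134) without shNC library 1 and -0.41 (adjusted p 0.00239) without shMETTL14 library 1.

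The other SOXE genes were silent at this depth. SOX8 and SOX10 had 0 counts in all 4 libraries. A count of 0 allows up to 3 counts per library, which is 0.151 to 0.157 CPM, and this limit covers counting error only. SOX10 overlaps POLR2F on the opposite strand over 89 exon bases.

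SOX2, the progenitor factor, was low and not called. It lies on chromosome 3 (181711924 to 181714436, plus strand) inside the non-coding gene SOX2-OT, with which it shares no exon bases. Its counts were 259 and 226 in shNC and 283 and 262 in shMETTL14 libraries, or 13.0 and 11.8 CPM against 14.5 and 13.6 CPM. The groups did not overlap, yet the log2 fold change of 0.18 (SE 0.109) had an edgeR adjusted p of 0.178, and its 95% interval ran from 0.967-fold to 1.32-fold.

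SOXD genes were at or near the floor. SOX5 had 1 and 2 counts in shNC and 10 and 6 counts in shMETTL14 libraries. Summed over libraries, this was 3 against 16 counts, a ratio of 5.37 with an exact 95% counting interval of 1.54 to 28.8, which does not cover the spread between libraries. SOX6 had 4 and 3 counts against 0 and 5 counts, with a ratio of 0.719 and an interval of 0.180 to 2.63. SOX6 shares 219 exon bases with C11orf58 on the opposite strand and 89 with MIR6073 on its own strand, so its few counts are uncertain. SOX13 had 1 and 0 counts in each group. None of these genes was expressed strongly enough to enter the test.

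**Figure D3:**
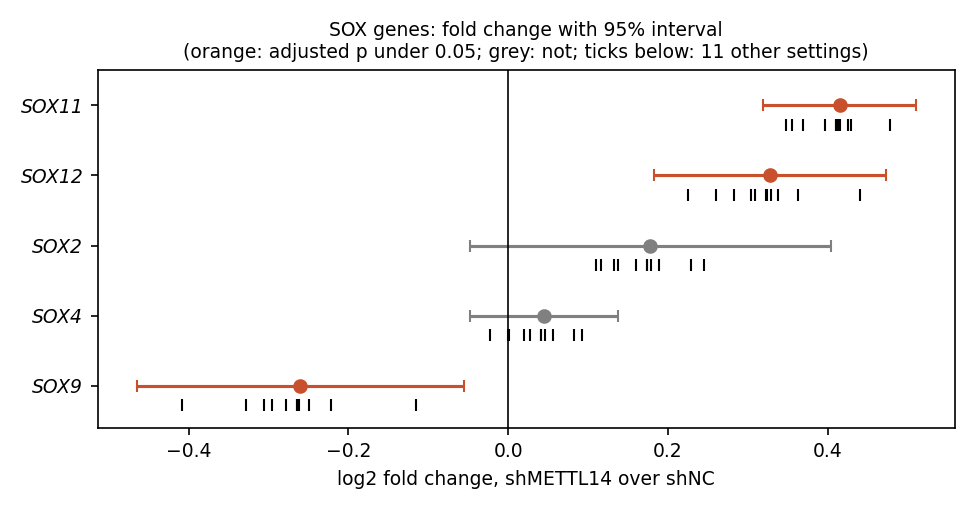
Log2 fold change of shMETTL14 over shNC for the 5 tested SOX genes, with 95% intervals as horizontal bars (orange, edgeR adjusted p under 0.05; grey, not), and small ticks for the values under 11 other settings. SOX11 (0.35 to 0.48) and SOX12 (0.23 to 0.44) stayed above 0 in every setting, SOX9 stayed below 0 (-0.41 to -0.12), and SOX4 crossed 0.

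Levels were ordered per transcript length, in RPKM computed with the exon length of GENCODE 29. In shNC cells the order was SOX4 (31.0 ± 1.55 RPKM), SOX11 (16.2 ± 1.06), SOX12 (9.32 ± 1.03), SOX9 (5.60 ± 0.228) and SOX2 (4.93 ± 0.335; SD, n = 2 each). No neighbors in this order overlapped between libraries. In shMETTL14 cells SOX4 stood at 32.0 ± 1.07, SOX11 at 21.6 ± 0.221 and SOX12 at 11.7 ± 0.314 RPKM. SOX2, at 5.58 ± 0.236, was then above SOX9, at 4.68 ± 0.656 RPKM (SD, n = 2 each), and their libraries again did not overlap. The exchange of these last places was not tested.

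Members also differed in transcript features that bear on m6A, which is placed mainly at adenosines in a DRACH context, GGACT in DNA letters being a common form. GGACT was searched on the transcript strand of the longest coding transcript. SOX12 held 12 copies in 4630 bases, and 2.74% of 12832 tested genes with a coding transcript held as many. SOX4 held 8 copies, SOX11 held 7, and SOX2 and SOX9 held 3 each. Per kilobase the density was 2.59 in SOX12, 1.37 in SOX4, 1.19 in SOX2, 0.803 in SOX11 and 0.762 in SOX9, beside a median of 0.939 over tested genes. Per kilobase, SOX11 and SOX12, which rose, lay on either side of that median. By copies per transcript both lay above the median of 3, as did SOX4, which was not called. A link between copies and changes was not tested. At least 1 copy was present in 91.1% of tested genes, and a copy does not show that the site is methylated.

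The rest of the family gave few reads. Of 9 other SOX genes, 4 had no count in any library, and SOX7 was the 1 that could be tested. SOX7, an endothelial SOXF factor, had 26 and 23 counts in shNC and 14 and 10 counts in shMETTL14 libraries, with a log2 fold change of -1.01 (SE 0.414, edgeR adjusted p 0.0447). It shares 1268 exon bases with PINX1 on the same strand, so its counts are uncertain. DESeq2 gave an adjusted p of 0.201, and with any 1 library left out the edgeR value lay between -1.26 and -0.80 with adjusted p from 0.0879 to 0.267.

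Of the RNAs that overlap SOX genes or run antisense to them, SOX9-AS1, on the strand opposite to SOX9, was lower together with SOX9. Its counts were 42 and 51 in shNC and 28 and 27 in shMETTL14 libraries (log2 fold change -0.75, SE 0.296, edgeR adjusted p 0.0391). The call was lost with DESeq2 (adjusted p 0.174), without shNC library 2 (-0.57, adjusted p 0.247), without shMETTL14 library 1 (-0.76, adjusted p 0.102) and without shMETTL14 library 2 (-0.72, adjusted p 0.116). SOX2-OT had 13 and 23 against 11 and 7 counts and was not called (edgeR adjusted p 0.101). In the annotation SOX9-AS1 shares no exon bases with SOX9, but 195 with LINC02097 and 270 with LINC01152, both on the opposite strand. Because the strand setting of the counting is unknown, reads of these 2 genes may not be fully told apart from those of SOX9-AS1.

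Genes that SOX factors are known to regulate or work with were followed in 5 lists written from general knowledge. Earlier results of these data were known when the lists were chosen. List counts are read beside the shares of all tested genes called higher (27.2%) and lower (25.3%). Genes linked with SOXC factors in neurons were mostly higher: 14 of 16 were tested, 10 were called higher and 2 lower, with a median log2 fold change of 0.45. ELAVL3, which encodes a neuronal RNA-binding protein, rose from 89.3 to 196 CPM (1.13, SE 0.0473, edgeR adjusted p 2.2e-14), but shares 256 exon bases with another coding gene on the same strand, so its counts are uncertain. MAP2, which encodes a dendritic microtubule-associated protein, rose from 84.7 to 174 CPM (1.04). TUBB3, the neuronal tubulin, rose from 3.58 to 7.16 CPM (1.00), and its counts are uncertain likewise, with 1584 exon bases shared. NEUROD1, too low to be tested, had 9 and 8 counts in shNC and 0 counts in each shMETTL14 library. It shares 236 exon bases with CERKL on the same strand, so its counts are uncertain. Both genes of the list that were called lower are named, PROX1 after its values were seen. PROX1, a homeobox factor, had 3098 and 2896 counts in shNC and 1542 and 1677 counts in shMETTL14 libraries (-0.89, SE 0.0496, edgeR adjusted p 2.6e-12), and it shares 171 exon bases with PROX1-AS1 on the opposite strand. CXCR4, which encodes a chemokine receptor, had 24 and 11 counts against 2 and 9 counts. Its log2 fold change was -1.63 (edgeR adjusted p 0.0269), and edgeR gave -1.01 (adjusted p 0.374) without shNC library 1, -0.92 (adjusted p 0.307) without shMETTL14 library 1 and -3.04 without shMETTL14 library 2.

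Neural progenitor genes linked with SOXB1 factors were split. Of 16 genes 12 were tested, with 4 called higher, 4 called lower and a median log2 fold change of 0.03. FABP7, a radial glia fatty acid binding protein, had 301 and 329 counts in shNC and 3 counts in each shMETTL14 library. Its log2 fold change was -6.65 with edgeR, or 0.997% of control with an interval of 0.00684-fold to 0.0146-fold. Because both shMETTL14 libraries lay at the floor of 3 counts per library, the size of this fall is imprecise. ZIC2, a zinc finger factor of the early neural plate, fell from 83.8 to 29.2 CPM (-1.52, SE 0.0653, edgeR adjusted p 3.2e-14). MSI1, which encodes a progenitor RNA-binding protein, rose from 23.1 to 31.9 CPM (0.47). POU3F2 and HES5 had no count.

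Cartilage genes that SOX9 activates together with SOX5 and SOX6 were mostly not expressed. Of 16, 5 could be tested and 2 were called, both lower, with a median log2 fold change of -0.33. COL9A2, which encodes a chain of type IX collagen, had 418 and 408 counts in shNC and 245 and 213 counts in shMETTL14 libraries (-0.84, SE 0.100, edgeR adjusted p 3.5e-07). COL9A3, another chain, had 49 and 30 against 15 and 9 counts (-1.70, SE 0.398, edgeR adjusted p 0.00112), and overlaps TCFL5 on the opposite strand over 45 exon bases. COL2A1 and ACAN, the defining cartilage matrix genes, had at most 9 and 1 counts in a library.

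Neural crest genes linked with SOXE factors were lower more often than higher, with 11 of 16 tested, 2 called higher and 6 called lower (median log2 fold change -0.21). NGFR, which encodes the p75 neurotrophin receptor, fell from 76.4 to 38.5 CPM (-0.99, SE 0.0581, edgeR adjusted p 5.8e-12), though it overlaps antisense genes. ETS1, a factor of the ETS family, fell from 130 to 83.0 CPM (-0.65). MSX2, a homeobox factor, rose from 17.4 to 31.6 CPM (0.86).

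Schwann cell genes linked with SOX10, which itself had no count, were mixed, with 9 of 16 tested, 2 called higher and 4 called lower (median log2 fold change -0.22). L1CAM, a neural adhesion molecule that neurons express as well, rose from 86.3 to 173 CPM (1.01, SE 0.0476, edgeR adjusted p 1.7e-13). CNP, a myelin enzyme, rose from 45.6 to 63.0 CPM (0.46), and EGR2, a myelination factor, fell from 19.6 to 12.3 CPM (-0.67). L1CAM and CNP overlap other coding genes. S100B, a glial calcium-binding protein, had 70 and 59 counts against 33 and 50 counts (-0.62, edgeR adjusted p 0.0483). Its call was lost with DESeq2 (adjusted p 0.191), without shNC library 1 (-0.53, adjusted p 0.194), without shNC library 2 (-0.71, adjusted p 0.0695) and without shMETTL14 library 1 (-0.34, adjusted p 0.378), and it was -0.96 without shMETTL14 library 2.

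**Figure D4:**
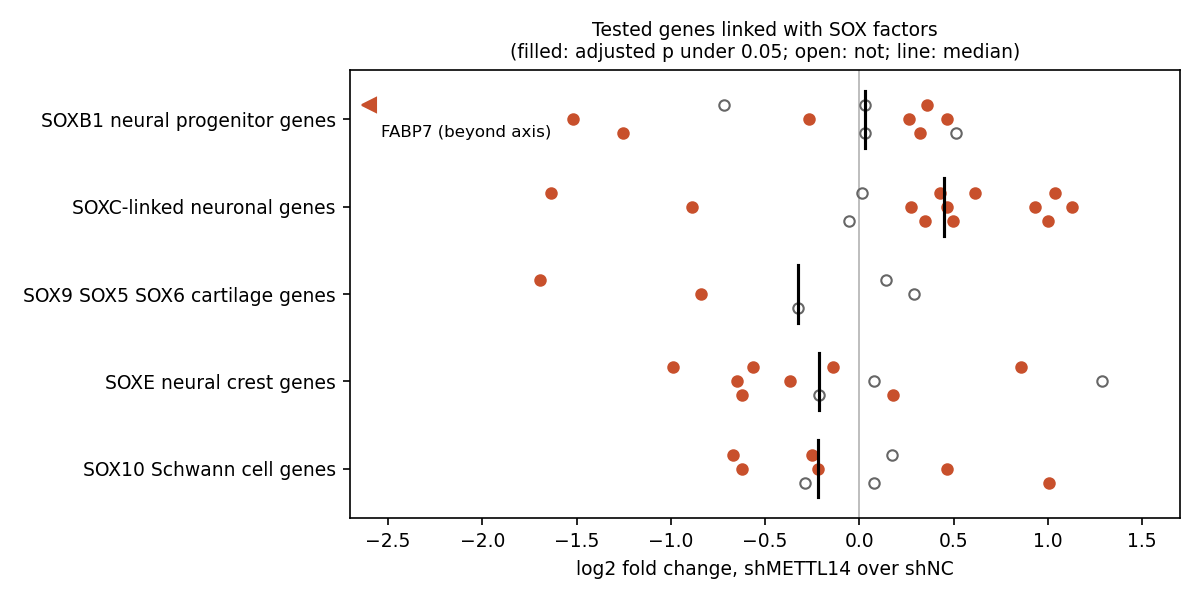
Log2 fold change of shMETTL14 over shNC for the tested genes of the 5 SOX-linked lists, with filled points for an edgeR adjusted p under 0.05, open points for genes that did not pass, and a line at each list's median; FABP7 lies beyond the axis. The median was 0.45 for the SOXC-linked neuronal list and lay between -0.33 and 0.03 for the other 4 lists.

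The genes whose expression pattern was most like that of SOX11 were CNOT11, NFKBIB and ARPC3. Likeness was the root mean square difference of centered log2 CPM over the 4 libraries among 11558 other genes, and it was 0.0049, 0.0069 and 0.010 for the 3 genes. Their log2 fold changes were 0.42, 0.42 and 0.41. With 4 libraries, many genes follow a similar course, and the ranking is a description.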

How the data were processed

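The authors deposited whole-number counts of reads for each Ensembl gene, not normalized, for 4 libraries in 1 table. The submitters' processing notes name HISAT2 2.1.0, StringTie 1.3.6, HTSeq 0.13.5, edgeR and GRCh38. Their roles, the annotation release and the strand setting are not given in the sources used here. Lines naming no gene (19.1% to 19.9% of counts per library) were left out. Columns were matched to samples by label, and 0 other sample columns were present.

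Counts were tested with edgeR 4.0.16 (R 4.3.3; quasi-likelihood F-test, TMM scaling, filterByExpr with a minimum count of 10 and total of 15, group as the only term). P-values were adjusted by Benjamini-Hochberg over 16309 genes, and genes were called under 0.05. Intervals (95%) used the moderated degrees of freedom. CPM and RPKM were computed here. DESeq2 1.42.0, other scalings and filters, a replicate block and leaving out each library were alternatives. The procedure was also run on simulated counts, but with changes larger than those of the called SOX members, so that run does not bear on their calls.

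Named genes were METTL14, all members, genes overlapping a member, at most 4 called genes per list by absolute log2 fold change, listed genes at the floor of 3 counts, and the 3 genes most like the called member with the largest change. COL2A1, ACAN, PROX1 and NEUROD1 were chosen after their values were seen, as were the markers named. Members and lists were chosen with earlier results of these data known. Gene symbols were found for IDs through a name table, and 58453 of 60671 IDs were in GENCODE 29, whose coordinates are used here. SOX6-AS1 had no match. Mean chi-square per gene was 2.80 between shNC and 2.30 between shMETTL14 libraries, above the sampling noise. The common coefficient of variation between replicates in edgeR was 3.45%. Each library was counted as a replicate, but these values cannot show whether the libraries came from separate cultures. Some listed genes are not reported here by name.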

Additional observations from a re-analysis of the deposited data

How the results depend on the processing

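SOX11 stayed higher with an adjusted p under 0.05 in all 11 alternatives (log2 fold change 0.35 to 0.48), and so did SOX12 (0.23 to 0.44) and, lower, METTL14 (-1.33 to -1.21). SOX2 was called in none (0.11 to 0.25). SOX4 reversed to -0.022 under upper quartile scaling, which shifted the median of well-expressed genes (mean log2 CPM from 2 upwards) by -0.07, and it was not called in any. SOX9 kept its direction in all 11 and its call in 7. With genes of at least 1 count in all it had an adjusted p of 0.0721, with 31490 rather than 16309 genes tested. The cause of the lost call was not tested, either for that fit or for DESeq2. The number of called members was 2 to 3. All genes called numbered 8561 (4438 higher, 4123 lower), 6022 with DESeq2 and 3550 higher against 4961 lower with upper quartile scaling. With each library left out in turn, METTL14 ranged from -1.31 to -1.21, called genes from 7287 to 7458 and called members from 2 to 3; the lone library of a group was then assumed to vary like the other group. Same-numbered libraries shared only a number (Pearson correlation of deviations -0.0018 across genes). A fit that added a replicate block called 8926 genes, 3 SOX members among them. There METTL14 was -1.26, SOX11 0.42 and SOX9 -0.26. For the 20 listed genes picked as called with the largest changes of their list, each gene was compared in each alternative that tested it. Of these 217 comparisons, 199 kept direction and call, and 18 kept the direction only. Because the genes were picked by their calls, these counts do not describe the lists as a whole. PROX1 stayed lower and called in all 11 (-0.95 to -0.81). Depth limits SOX5, SOX6 and SOX13, which could be tested only without the filter and had adjusted p-values of 0.0725, 0.828 and 0.996 there, and SOX8 and SOX10, which had no counts.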
